A study of Arabidopsis thaliana with 4 samples.

Results

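Roots of Col-0, a wild-type accession of Arabidopsis thaliana, grown on medium with methyl jasmonate (MeJA) were compared with roots grown without any hormone, gene by gene, from 1 RNA-seq library of each. All plants grew for 7 days, the tested roots on 10 μM MeJA and the control roots on the same Murashige and Skoog solid medium with nothing added. A library from roots on 50 nM BAP, a synthetic cytokinin, and a library from roots on both compounds (MeJA/cytokinin) complete the series of 4 libraries and are used here only beside the MeJA comparison. Of 33565 genes with an FPKM value (fragments mapped to a gene, scaled by transcript length and library size), 19818 were above 0 in both libraries and reached 1 FPKM in one or both. These 19818 genes are called the main set below, and 3124 genes that stayed under 1 FPKM in both libraries are described apart from them. With 1 library per condition the spread between replicates is unknown, so p-values are not reported. A gene is called higher or lower when its FPKM differed by at least 2-fold.

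Jasmonic acid (JA) is a lipid-derived hormone of wound and defense responses that also slows root growth. Inside the cell its isoleucine conjugate joins the receptor COI1 to JAZ repressor proteins, which are then degraded, and MYC2 and related transcription factors are released to act on their targets. The JAZ genes and the genes of JA synthesis and breakdown are themselves among these targets, so the pathway is known for feeding back on itself. Roots placed on MeJA convert it to JA and its conjugate.

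The libraries were sequenced to 103814650 reads with MeJA and 98961424 reads in the control, and to between 98605532 and 115141812 reads over all 4. From the smallest steps between low FPKM values, an estimated 46716593 fragments were mapped with MeJA and 44631602 in the control. At that depth 3 fragments on 1 kb of transcript correspond to 0.0764 FPKM with MeJA and 0.0800 FPKM in the control. Counting intervals below are at the 95% level, were computed from these fragment estimates and include no biological or preparation error. For scale, the spread of the log2 ratio of cytokinin over control ran between 0.81 at the lowest FPKM and 0.27 at the highest. That of MeJA over control ran between 1.26 in the lowest of 10 FPKM groups and 0.40 in the eighth, with 0.43 in the highest. Neither is a replicate error, as each sets a hormone treatment against the same control library. The 8 reference genes, which include ACT2 and UBQ10, had log2 ratios of MeJA over control between -0.67 and 0.32. GAPC2, a glyceraldehyde-3-phosphate dehydrogenase used as a reference in qRT-PCR, had 761 FPKM with MeJA and 898 FPKM in the control. In a bulk root library fewer cells of a type and less RNA per cell cannot be told apart.

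In MeJA roots 1670 genes passed 2-fold upward against control roots, which is 8.43% of the main set, and 1924 passed it downward, which is 9.71%. The other 16224 genes stayed within 2-fold, and the median log2 ratio of the main set was -0.01. The counting interval of the ratio lay wholly above 1 for 1660 of the 1670 higher genes and wholly below 1 for 1919 of the 1924 lower genes. Changes of at least 8-fold were seen upward in 330 genes and downward in 277, and changes of at least 32-fold in 80 and 52 genes. Some called genes were rare in one library: 29 of the higher genes had 3 or fewer estimated fragments in the control, and 35 of the lower genes had 3 or fewer with MeJA.

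**Figure D1:**
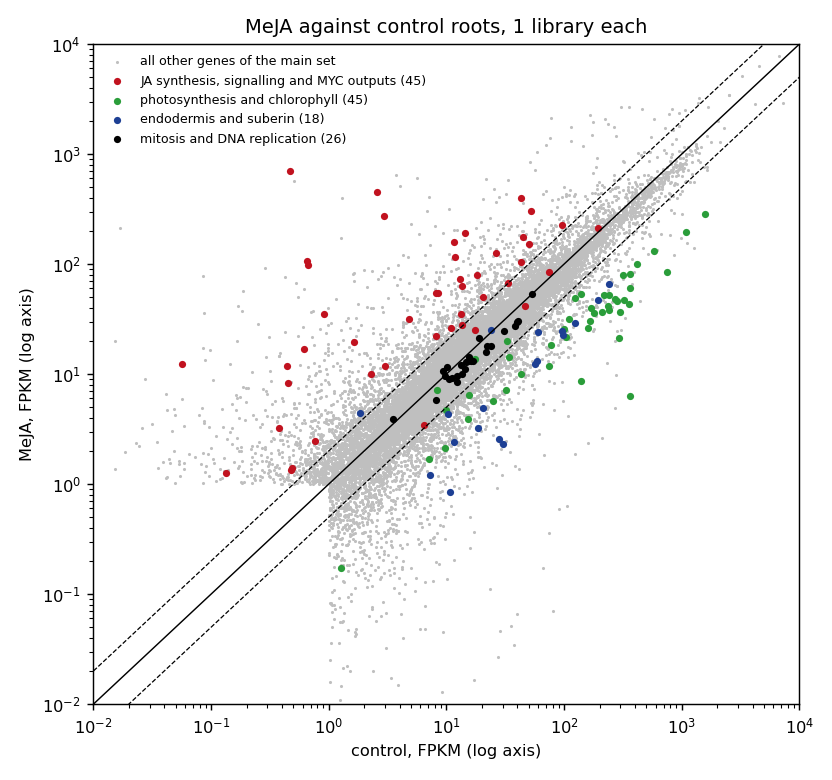
FPKM of each main set gene with MeJA (vertical, log axis) against control (horizontal, log axis), 1 library each. The solid line marks equal values and the dashed lines 2-fold. Most of the 45 JA genes (red) lie above the upper dashed line, most of the 45 photosynthesis and chlorophyll genes (green) and of the 18 endodermis and suberin genes (blue) lie below the lower one, and the 26 mitosis and DNA replication genes (black) lie between them.

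The share of genes past 2-fold depended on how much transcript a gene had. Among the 3124 genes under 1 FPKM in both libraries, 411 (13.2%) were higher and 625 (20%) lower with MeJA, and the counting interval left out equality for 276 of the higher and 457 of the lower ones. Among the 7387 genes whose larger value lay between 5 and 20 FPKM, the shares were 6.32% higher and 8.28% lower, and among the 1922 genes of 100 FPKM or more they were 12.4% and 10.7%. Both low and very abundant genes thus passed the threshold more often than genes of middling level, and no low gene is described below except as a named list member.

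The JAZ repressors were the gene group with the largest median ratio. Of the 13 JAZ genes, 11 were higher with MeJA and none was lower, with a median log2 ratio of 3.21. JAZ10, a repressor whose transcript is also spliced into forms that resist degradation, had 449 FPKM with MeJA and 2.59 FPKM in the control, a 174-fold difference with a counting interval of 7.26 to 7.63 on the log2 scale. JAZ1 had 397 FPKM with MeJA and 42.9 FPKM in the control. JAZ5 had 35.1 FPKM with MeJA and 0.910 FPKM in the control. The most abundant JAZ transcripts of MeJA roots were thus JAZ10 and JAZ1, whereas JAZ1 and JAZ12 led in the control. JAZ12 had 67.0 FPKM with MeJA and 33.6 FPKM in the control, just inside the threshold at 1.99-fold, and JAZ11 had 25.4 FPKM with MeJA and 17.6 FPKM in the control. The remaining members had log2 ratios between 1.42 for JAZ4 and 4.78 for JAZ8. The JAZ transcripts together summed to 1437 FPKM with MeJA and 162 FPKM in the control.

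MYC2 and its relatives are known to bind the G-box, CACGTG, so the reference sequence around JAZ gene starts was searched for it. In windows from 250 bases before to 50 bases after the gene start, 5 of 13 JAZ genes held CACGTG. This hexamer reads the same on both strands. Of main set members, 2 of 14 JA biosynthesis genes, 0 of 10 JA conjugation and turnover genes and 1 of 8 MYC-branch outputs also held it. Of the 2 listed turnover genes under 1 FPKM in both libraries, AT3G11180 held it, 191 bases before the start, and JMT did not. The share was 8.66% over 19590 nuclear genes of the main set, 11.9% among the 1611 higher genes and 8% among the 1899 lower genes. The related hexamer CACATG, on either strand, was found in 18.5% of the higher, 17.7% of the lower and 13% of all windows, and GCCGCC, on either strand, the box read by ethylene response factors, in 2.42%, 1.16% and 2.66%. The 120 bases before the start of the 5 JAZ genes with a G-box are shown with the motif in capitals, from RefSeq annotation of TAIR10.1, because these are the members whose sequence carries it.
JAZ2: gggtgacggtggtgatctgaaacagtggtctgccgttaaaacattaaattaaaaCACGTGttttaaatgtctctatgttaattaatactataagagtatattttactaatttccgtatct
JAZ3: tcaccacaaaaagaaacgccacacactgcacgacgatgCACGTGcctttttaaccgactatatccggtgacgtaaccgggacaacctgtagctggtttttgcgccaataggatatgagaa
JAZ7: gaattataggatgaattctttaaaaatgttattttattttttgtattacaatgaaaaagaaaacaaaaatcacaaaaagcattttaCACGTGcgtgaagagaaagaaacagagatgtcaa
JAZ8: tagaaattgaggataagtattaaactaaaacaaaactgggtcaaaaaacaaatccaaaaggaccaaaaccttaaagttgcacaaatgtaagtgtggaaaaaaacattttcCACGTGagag
AT3G22275: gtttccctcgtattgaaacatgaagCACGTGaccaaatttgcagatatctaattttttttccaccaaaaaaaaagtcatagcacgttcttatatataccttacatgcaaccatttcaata

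These stretches lie at chr1:28150447-28150566 on the minus strand for JAZ2, chr3:6119587-6119706 on the plus strand for JAZ3, chr2:14572910-14573029 on the plus strand for JAZ7, chr1:10596232-10596351 on the plus strand for JAZ8 and chr3:7879811-7879930 on the minus strand for AT3G22275, each ending at the base before the annotated start. The G-box began 66 bases before the start in JAZ2, 34 in JAZ7, 10 in JAZ8 and 95 in AT3G22275, and JAZ3 held it at 82 and at 140 bases. The 5 genes had log2 ratios of 3.72 (JAZ2), 2.14 (JAZ3), 3.56 (JAZ7), 4.78 (JAZ8) and 4.20 (AT3G22275). JAZ10, with the largest ratio of the family, held CACATG and no CACGTG in this window, and JAZ1 and JAZ5 held neither.

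Of 9 genes for JA perception and regulation, 3 were higher with MeJA and 6 stayed within 2-fold. MYC2 had 99.3 FPKM with MeJA and 36.1 FPKM in the control, a log2 ratio of 1.46. JAM1, a bHLH repressor that competes with MYC2, had 25.3 FPKM with MeJA and 1.27 FPKM in the control. JAV1, a repressor of JA defense, had 27.3 FPKM with MeJA and 10.9 FPKM in the control. The genes for the receptor COI1 and the MYC2 relatives MYC3 and MYC4 had log2 ratios of -0.18, -0.15 and -0.05, so that their transcripts differed little from the control.

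The genes of JA synthesis and of JA breakdown were mostly higher at the same time. Of 14 synthesis genes in the main set, 12 were higher with MeJA and none was lower, with a median log2 ratio of 1.5. Among the higher genes, the calls of LOX3, LOX4 and AOC2 ended with a pseudocount of 1 FPKM. LOX2, a lipoxygenase of the first step, had 11.9 FPKM with MeJA and 0.444 FPKM in the control. AOS, the allene oxide synthase that follows, had 117 FPKM with MeJA and 11.9 FPKM in the control. OPR3, the reductase of the peroxisomal part, had 127 FPKM with MeJA and 26.2 FPKM in the control. The members that did not pass 2-fold were the beta-oxidation genes ACX5, at 3.47 FPKM with MeJA and 6.42 FPKM in the control, and KAT2, at 214 FPKM with MeJA and 196 FPKM in the control. DAD1, a lipase known from flowers, was listed at 0 in all 4 libraries.

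Of 10 genes for conjugation and turnover in the main set, 9 were higher with MeJA, with a median log2 ratio of 2.39. A further 2 listed genes, AT3G11180 and JMT, stayed under 1 FPKM in both libraries. JOX3, a 2-oxoglutarate oxygenase that hydroxylates JA, had 707 FPKM with MeJA and 0.468 FPKM in the control, a 1510-fold difference with a counting interval of 10.13 to 11.03 on the log2 scale. Among the other genes of the same oxygenase family, AT5G05600 had 304 FPKM with MeJA and 52.2 FPKM in the control, and AT2G38240 had 12.2 FPKM with MeJA and 0.0563 FPKM in the control. ST2A, a sulfotransferase of hydroxyjasmonate, had 158 FPKM with MeJA and 11.6 FPKM in the control. The cytochrome P450 genes that oxidize the active conjugate, CYP94B1, CYP94B3 and CYP94C1, had log2 ratios of 2.24, 1.98 and 1.68, and the amidohydrolase genes ILL6 and IAR3 had 2.73 and 1.26. With a pseudocount of 1 FPKM the CYP94C1 call ended. JAR1, the enzyme that makes the conjugate, had 41.2 FPKM with MeJA and 46.9 FPKM in the control and stayed within 2-fold.

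**Figure D2:**
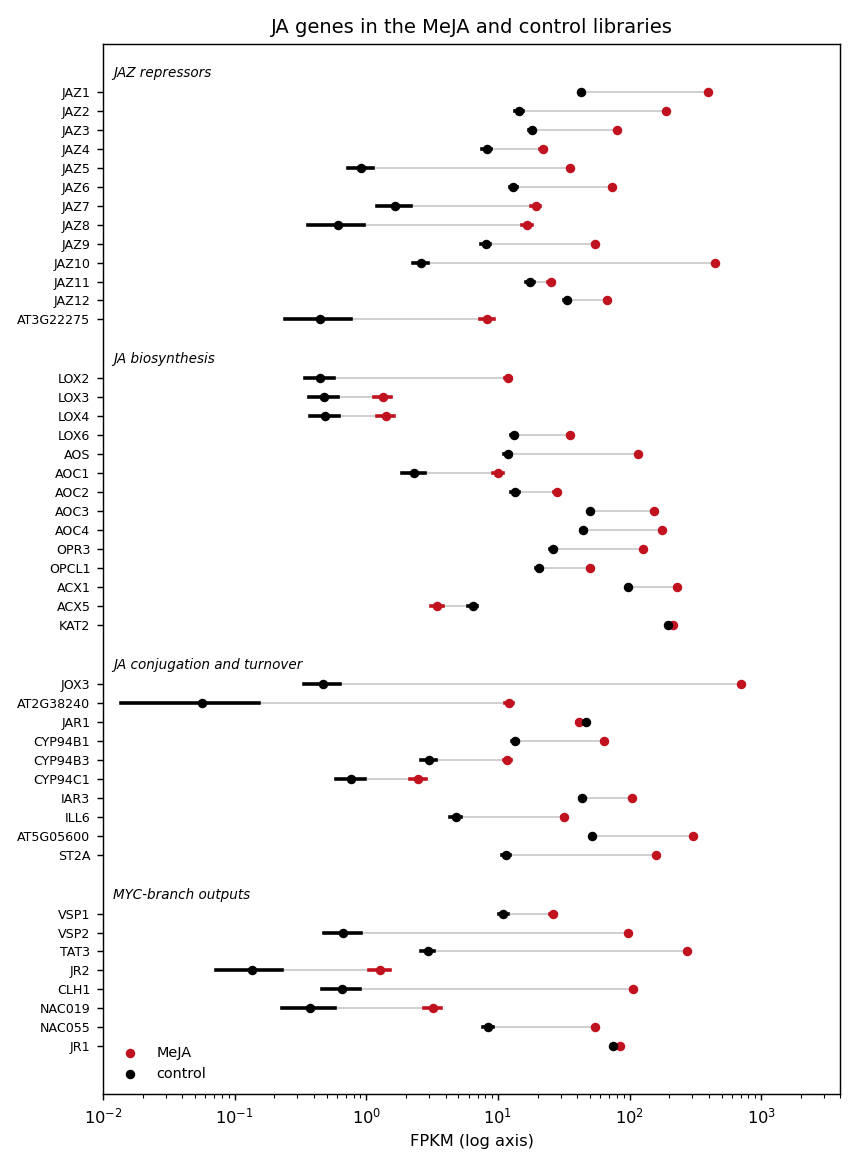
FPKM (log axis) of the main set members of the JAZ, JA biosynthesis, JA conjugation and turnover and MYC-branch lists with MeJA (red) and in the control (black), 1 library each. Thick bars are 95% counting intervals. JAZ10 and JOX3 show wide gaps, at 449 and 707 FPKM with MeJA against 2.59 and 0.468 FPKM in the control, whereas KAT2, JAR1 and JR1 nearly coincide.

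Defense outputs of JA divide into a MYC branch, known from wounding, and an ERF branch, which JA shares with ethylene. Of 8 MYC-branch genes in the main set, 7 were higher with MeJA, with a median log2 ratio of 3.17. VSP2, a vegetative storage protein, had 97.6 FPKM with MeJA and 0.669 FPKM in the control, whereas its neighbor VSP1 had 26.2 FPKM with MeJA and 10.99 FPKM in the control. CLH1, a chlorophyllase gene known as coronatine-induced, had 106 FPKM with MeJA and 0.651 FPKM in the control. TAT3, a tyrosine aminotransferase, had 272 FPKM with MeJA and 2.93 FPKM in the control. JR2, a cystine lyase, was rarer, with 1.27 FPKM with MeJA and 0.135 FPKM in the control, and its call ended with a pseudocount of 1 FPKM. The transcription factor gene NAC055 had 54.9 FPKM with MeJA and 8.43 FPKM in the control. JR1, a jacalin lectin gene, had 85.0 FPKM with MeJA and 74.7 FPKM in the control.

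The ERF branch was split. ERF1 had 18.5 FPKM with MeJA and 0.747 FPKM in the control, and ERF2 had 29.1 FPKM with MeJA and 4.34 FPKM in the control. PR4, a hevein-like protein, had 2081 FPKM with MeJA and 582 FPKM in the control. ORA59, the regulator that joins JA and ethylene signals, had 7.99 FPKM with MeJA and 15.6 FPKM in the control and missed the threshold. The plant defensin genes, a common readout of this branch, were listed at 0 or near it: PDF1.2 had 0.153 FPKM with MeJA and was listed at 0 in the control, PDF1.2b and PDF1.2c were listed at 0 in both, and PDF1.1 had 0.159 FPKM with MeJA and 0.0844 FPKM in the control. Reads of PDF1.1 may be shared with PDF1.3, which matches it at 90.3% identity over 257 bases. Of 5 salicylate and camalexin genes in the main set, 2 were higher, CYP71A12 and CYP71A13. These share 90.5% identity, so reads may be shared between them, and neither call held with a pseudocount of 1 FPKM. WRKY70, a transcription factor of the salicylate response, was lower, with 0.998 FPKM with MeJA and 9.73 FPKM in the control.

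**Figure D3:**
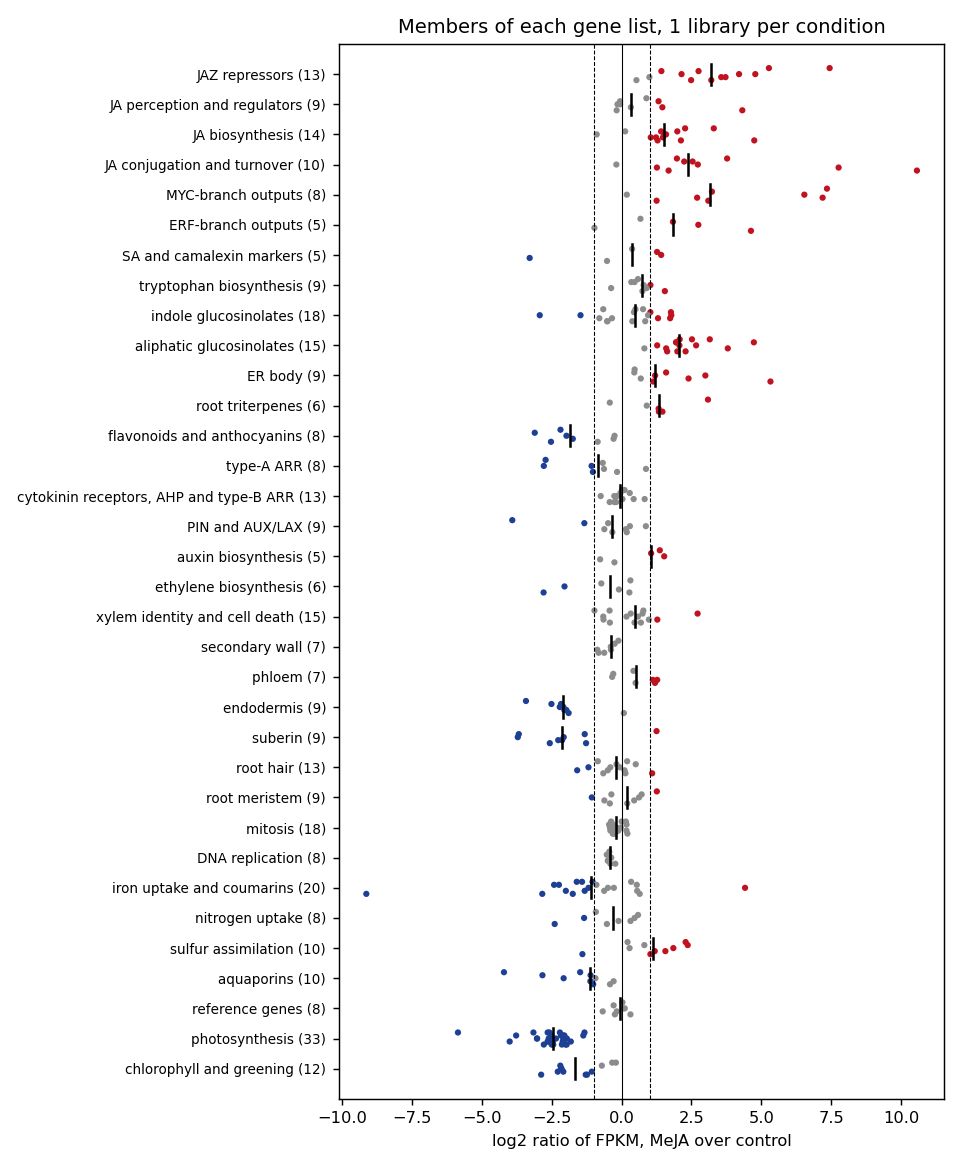
Log2 ratio of MeJA over control for the main set members of 34 gene lists, 1 library per condition. Each point is a gene, red where at least 2-fold higher, blue where at least 2-fold lower and grey within 2-fold (dashed lines), numbers in brackets give the members, and the black bar is the median, which lies at 3.21 for the JAZ repressors and at -2.45 for photosynthesis.

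Among genes that reached 5 FPKM in either library, the 12 with the highest ratio included JOX3 and AT2G38240 and 10 genes outside the JA lists. scpl30, a serine carboxypeptidase-like gene, had 210 FPKM with MeJA and 0.0169 FPKM in the control, where it rested on 3 or fewer fragments, and the counting interval of the ratio ran from 11.19 to 18.61 on the log2 scale. DIN11, a 2-oxoglutarate oxygenase also known from dark-treated leaves, had 565 FPKM with MeJA and 0.502 FPKM in the control. DIR5, a dirigent-like protein, had 400 FPKM with MeJA and 1.29 FPKM in the control. FAMT, annotated as a farnesoic acid carboxyl-O-methyltransferase, had 92.3 FPKM with MeJA and 0.288 FPKM in the control, and it shares 91.6% identity over 1133 bases with AT3G44870, so that reads may be split between them. The other members were AT3G19550 at 78.6 FPKM with MeJA and 0.0856 FPKM in the control, with a counting interval of 8.28 to 12.16, and AT3G61400, another 2-oxoglutarate oxygenase, at 57.2 FPKM with MeJA and 0.186 FPKM in the control. The beta glucosidase gene BGLU24 had 41.8 FPKM with MeJA and 0.168 FPKM in the control. AT4G15990, AT1G32970 (a subtilisin-like protease) and TLP5 (tubby like) had between 20.01 and 37.6 FPKM with MeJA and between 0.0154 and 0.183 FPKM in the control, where TLP5 rested on 3 or fewer fragments and had a counting interval of 7.96 to 15.24. Between MeJA/cytokinin and cytokinin roots, a pair that shares no library with this comparison, the log2 ratios of the 12 genes ran from 4.14 to 8.82.

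Glucosinolates are sulfur-rich defense compounds of Brassicaceae, made from methionine (aliphatic) or tryptophan (indole) by parallel sets of enzymes. Of 15 aliphatic glucosinolate genes in the main set, 14 were higher with MeJA and none was lower, with a median log2 ratio of 2.07. MYB28, their transcription factor, had 79.1 FPKM with MeJA and 19.8 FPKM in the control. BCAT4, the aminotransferase of methionine chain elongation, had 367 FPKM with MeJA and 26.4 FPKM in the control. FMO_GS-OX1, a side-chain oxygenase, had the highest ratio of the list, with 8.60 FPKM with MeJA and 0.324 FPKM in the control. CYP79F2 had 99.99 FPKM with MeJA and 23.8 FPKM in the control, and as it shares 91.7% identity with CYP79F1 the division of reads between these genes is uncertain. The lowest member, IIL1, had 269 FPKM with MeJA and 153 FPKM in the control.

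The indole branch moved less evenly. Of 18 indole glucosinolate genes, 5 were higher, 2 were lower and 11 stayed within 2-fold, and the median log2 ratio was 0.47. GGP1, a glutamyl peptidase that acts in both branches, had 413 FPKM with MeJA and 121 FPKM in the control, and GSTF9, a glutathione S-transferase, had 2342 FPKM with MeJA and 948 FPKM in the control. The tandem methyltransferase genes went opposite ways: IGMT1 had 283 FPKM with MeJA and 84.8 FPKM in the control, and IGMT2 had 3.76 FPKM with MeJA and 28.5 FPKM in the control. Each shares over 90% identity with their neighbor IGMT3, at 92.1% for IGMT1 and 96.3% for IGMT2, so reads may be assigned to the wrong copy. Of the regulators, MYB34 had 74.6 FPKM with MeJA and 57.1 FPKM in the control, while MYB122 was lower, at 1.00 FPKM with MeJA and 2.78 FPKM in the control. The MYB122 call ended with a pseudocount of 1 FPKM. Of 9 tryptophan synthesis genes, ASA1, the first committed enzyme, was higher with 59.4 FPKM with MeJA and 20.3 FPKM in the control, and ASB1, its partner subunit, passed at 77.9 FPKM with MeJA and 38.1 FPKM in the control. Reads of ASB1 may be shared with AT1G24909, which matches it at 98.3% identity.

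Sulfate uptake and activation rose along with them in 6 of 10 genes. APR1, a reductase of activated sulfate, had 131 FPKM with MeJA and 36.3 FPKM in the control, and the transporter gene SULTR1;2 had 176 FPKM with MeJA and 59.5 FPKM in the control. LSU1 and LSU2, known as sulfur-deficiency markers, had log2 ratios of 2.37 and 2.29, and the kinases APK1 and APK2 had 1.03 and 1.19. SULTR1;1, the inducible transporter, was the lower member, with 2.14 FPKM with MeJA and 5.65 FPKM in the control.

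Further root defense genes were higher in part. Of 9 genes of the ER body, a beta-glucosidase store of Brassicaceae, 6 were higher and none lower with MeJA. BGLU18, the wound-inducible form, had 39.7 FPKM with MeJA and 0.992 FPKM in the control, and BGLU21 and BGLU22, which share 91.5% identity, had 1458 and 1888 FPKM with MeJA and 277 and 236 FPKM in the control. PYK10, the main root form, had 6257 FPKM with MeJA and 4563 FPKM in the control and stayed within 2-fold. Of 6 triterpene genes 4 were higher. MRN1, the marneral synthase, had 134 FPKM with MeJA and 15.8 FPKM in the control, and THAS1, the thalianol synthase, had 413 FPKM with MeJA and 150 FPKM in the control.

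Flavonoid genes went the other way. None of 8 main set members was higher and 5 were lower with MeJA, with a median log2 ratio of -1.86, or -0.85 when the members under 1 FPKM were included. CHS, the chalcone synthase that opens the pathway, had 172 FPKM with MeJA and 989 FPKM in the control. FLS1, the flavonol synthase, had 47.0 FPKM with MeJA and 213 FPKM in the control. TT7, the flavonoid 3'-hydroxylase, had the largest fall, at 2.15 FPKM with MeJA and 18.5 FPKM in the control. CHI and F3H had log2 ratios of -1.74 and -1.97. The flavonol regulator MYB12 had 12.2 FPKM with MeJA and 14.5 FPKM in the control. PAP1, an anthocyanin regulator known to respond to JA in shoots, had 1.06 FPKM with MeJA and was listed at 0 in the control, and its relative MYB113 had 10.98 FPKM with MeJA and was listed at 0 in the control (MYB113 was chosen after its values were seen). The late anthocyanin genes DFR, LDOX and UF3GT were all under 0.2 FPKM in both libraries.

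Endodermis and suberin genes were the root cell type lists with the lowest medians. The endodermis is the cell layer that seals the root vasculature with the lignified Casparian strip and later with suberin. Of 9 endodermis genes 8 were lower with MeJA and none was higher, with a median log2 ratio of -2.08. CASP1, a scaffold protein of the Casparian strip, had 65.4 FPKM with MeJA and 243 FPKM in the control. CASP5 had 2.59 FPKM with MeJA and 27.7 FPKM in the control. CASP2 and CASP4 had log2 ratios of -1.97 and -2.16, and the dirigent protein ESB1, the peroxidase PER64 and the receptor kinase SGN3 between -2.51 and -2.04. MYB36, the transcription factor that switches these genes on, stood apart, with 25.1 FPKM with MeJA and 23.7 FPKM in the control.

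Of 9 suberin genes in the main set 8 were lower with MeJA, with a median log2 ratio of -2.13. CYP86A1, a fatty acid hydroxylase of suberin monomers, had 2.32 FPKM with MeJA and 30.3 FPKM in the control. CYP86B1 had 0.847 FPKM with MeJA and 10.8 FPKM in the control, and the acyltransferase genes GPAT5 and ASFT had log2 ratios of -2.57 and -2.13. Of the fatty acyl reductases that make suberin alcohols, FAR4 and FAR5 were lower, at -1.27 and -2.26, whereas FAR1 was higher, with 4.41 FPKM with MeJA and 1.85 FPKM in the control, a call that ended with a pseudocount of 1 FPKM (0.92).

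Aquaporins fell as well. All 10 listed members had negative log2 ratios and 7 were lower by at least 2-fold. TIP2;3, a tonoplast channel, had 12.5 FPKM with MeJA and 230.3 FPKM in the control, and TIP2;2 had 120.2 FPKM with MeJA and 853 FPKM in the control. The tonoplast isoform TIP1;1 passed narrowly, with 762 FPKM with MeJA and 1538 FPKM in the control. The plasma membrane isoforms PIP1;1 and PIP1;2 stayed within 2-fold, at log2 ratios of -0.41 and -0.28.

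**Figure D4:**
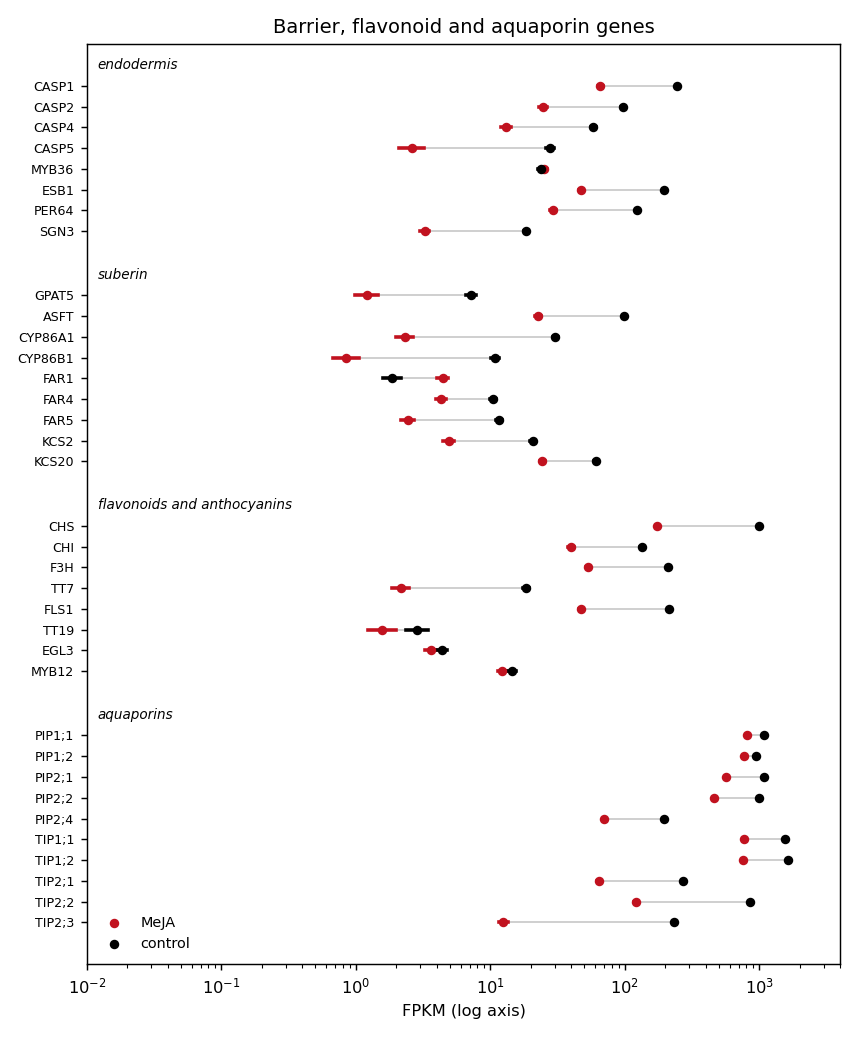
FPKM (log axis) of main set members of the endodermis, suberin, flavonoid and aquaporin lists with MeJA (red) and in the control (black), 1 library each, with thick bars for 95% counting intervals. Red lies left of black except at MYB36, with 25.1 and 23.7 FPKM, and FAR1, with 4.41 and 1.85 FPKM.

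Vascular genes were examined because the study asks how JA acts on xylem. Of 15 xylem identity and cell death genes in the main set, 2 were higher and none lower, beside 8.43% higher and 9.71% lower over the main set. With 15 genes, counts this small do not stand out from those shares. The median log2 ratio of the list was 0.46, with 10 positive and 5 negative ratios. XND1, a NAC factor known to hold back xylem differentiation, had 4.55 FPKM with MeJA and 0.691 FPKM in the control, and BFN1, a nuclease of programmed cell death, had 7.08 FPKM with MeJA and 2.92 FPKM in the control. The xylem cysteine proteases XCP1 and XCP2 each had a log2 ratio of -0.65, VND6, a switch factor of vessel cells, had 1.69 FPKM with MeJA and 1.22 FPKM in the control, and VND7 stayed under 1 FPKM in both. The HD-ZIP III genes PHB, PHV, REV, CNA and ATHB8 had log2 ratios between 0.33 and 0.98, none past 2-fold. None of the 7 secondary wall genes passed 2-fold, but all 7 had negative log2 ratios, between -0.87 and -0.11, with a median of -0.39. Of 7 phloem genes 3 were higher: APL had 20.04 FPKM with MeJA and 8.75 FPKM in the control, SUC2, the companion cell sucrose transporter, had 27.6 FPKM with MeJA and 12.7 FPKM in the control, and BRX had 2.51 FPKM with MeJA and 1.04 FPKM in the control. The BRX call ended with a pseudocount of 1 FPKM.

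Cytokinin responses were read from type-A ARRs, which cytokinin induces and which dampen its signal. Of 8 type-A genes, 4 were lower with MeJA and none was higher. ARR7 had 2.15 FPKM with MeJA and 14.2 FPKM in the control. ARR15 had 0.459 FPKM with MeJA and 3.15 FPKM in the control. ARR5 had 27.8 FPKM with MeJA and 58.4 FPKM in the control, and ARR3 had 24.5 FPKM with MeJA and 49.8 FPKM in the control. With a pseudocount of 1 FPKM the ARR3 call ended. ARR6 had a log2 ratio of -0.67 and ARR9 the opposite sign, at 0.87. None of the 13 genes for receptors, phosphotransfer proteins and type-B ARRs passed 2-fold, and among them the receptor gene WOL had 18.9 FPKM with MeJA and 31.6 FPKM in the control. AHP6, which inhibits the cytokinin phosphorelay, had 1176 FPKM with MeJA and 1317 FPKM in the control, a log2 ratio of -0.16, while it had 0.139 FPKM in the cytokinin and 0.578 FPKM in the MeJA/cytokinin library. What sets these levels so far apart cannot be told from 1 library each, so the AHP6 values are uncertain.

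Auxin transport genes mostly kept their level. Of 9 PIN and AUX/LAX genes in the main set, PIN4 was lower, with 7.29 FPKM with MeJA and 18.3 FPKM in the control, and PIN5, an efflux carrier of the endoplasmic reticulum, was lower with 0.165 FPKM with MeJA and 2.47 FPKM in the control. The auxin synthesis genes YUC5, YUC8 and YUC9 were higher, with log2 ratios of 1.52, 1.06 and 1.37. Of 6 ethylene synthesis genes, ACS2 and ACS7 were lower, at -2.79 and -2.04. The median of the auxin synthesis list, 1.06, rested on 5 genes, and YUC8 fell under 2-fold with a pseudocount of 1 FPKM. Over the main set 8.43% of genes were higher and 9.71% lower, and the called members of these short lists are few beside those shares.

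Cell division genes did not pass 2-fold in either direction. All 18 mitosis genes had log2 ratios between -0.44 and 0.21, among them CYCB1;1 at 8.97 FPKM with MeJA and 10.6 FPKM in the control. All 8 DNA replication genes had negative log2 ratios, between -0.53 for MCM3 and -0.22 for MCM5. Of 9 meristem genes 1 was higher and 1 lower, near the main set shares of 8.43% and 9.71%. WOX5, the marker of the quiescent center, was higher, with 5.69 FPKM with MeJA and 2.38 FPKM in the control, but had a log2 ratio of 0.99 with a pseudocount of 1 FPKM, and JKD, a zinc finger factor of tissue patterning, was lower, with 11.8 FPKM with MeJA and 24.7 FPKM in the control, while the PLETHORA genes PLT1 and PLT2 had log2 ratios of -0.42 and 0.45. Of 13 root hair genes 1 was higher and 2 were lower, and 5 had positive and 8 negative log2 ratios, with a median of -0.18. RHD6, the first regulator, was higher, at 19.4 FPKM with MeJA and 9.07 FPKM in the control, and RSL1 and RSL2 were lower, at -1.59 and -1.18. The calls of RSL1 and RSL2 ended with a pseudocount of 1 FPKM. Among the structural genes within 2-fold, EXPA7 and COW1 had 0.20 and 0.11 and LRX1 had -0.85.

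Iron uptake genes were lower more often than higher. Of 20 iron and coumarin genes in the main set, 11 were lower and 1 was higher with MeJA, with a median log2 ratio of -1.11. IRT1, the iron transporter, had 400 FPKM with MeJA and 906 FPKM in the control, and FRO2, the ferric reductase, had 83.9 FPKM with MeJA and 396 FPKM in the control. FIT, the factor that activates both, had 25.0 FPKM with MeJA and 62.2 FPKM in the control. Its partner genes bHLH38 and bHLH39 had log2 ratios of 0.65 and 0.56. The nicotianamine synthases divided: NAS4 had 76.8 FPKM with MeJA and 3.60 FPKM in the control, whereas NAS1 and NAS2 had log2 ratios of -1.74 and -1.99. In the coumarin branch F6'H1 had 77.9 FPKM with MeJA and 237 FPKM in the control, CYP82C4, which shares 91.7% identity with CYP82C3, had 24.6 FPKM with MeJA and 175 FPKM in the control, and AT3G12900 had 0.0462 FPKM with MeJA, on 3 or fewer fragments, and 28.6 FPKM in the control, with a counting interval of the ratio of -11.72 to -7.65 on the log2 scale. Among 8 nitrogen genes, the ammonium transporter genes AMT1;1 and AMT1;3 were lower, at log2 ratios of -2.39 and -1.34. Of 4 phosphate genes, PHT1;4 was higher at 1.51 and RNS1 lower at -1.38, a call that ended with a pseudocount of 1 FPKM. These nitrogen and phosphate lists are short, beside 8.43% higher and 9.71% lower over the main set.

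Green tissue genes were kept apart because root samples can carry traces of shoot and because light-exposed roots can form chloroplasts. All 33 nuclear photosynthesis genes were lower with MeJA, with a median log2 ratio of -2.45. RBCS1A, a small subunit of Rubisco, had 284 FPKM with MeJA and 1561 FPKM in the control. LHCB1.1, a light-harvesting protein, had 6.35 FPKM with MeJA and 366 FPKM in the control, and reads may be shared with LHCB1.3, which matches it at 96.1% identity. The list summed to 1834 FPKM with MeJA and 10248 FPKM in the control, and to 289 FPKM in the cytokinin and 184 FPKM in the MeJA/cytokinin library. Of 12 chlorophyll and greening genes 9 were lower, among them the regulators GLK1 and GLK2 at -2.87 and -1.07. Both of these regulator calls ended with a pseudocount of 1 FPKM. Of the 33 chloroplast-encoded genes in the main set, 10 were lower and 8 higher, with a median log2 ratio close to 0, in libraries selected for polyA RNA.

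Shoot identity genes were at a trace in the control and mostly listed at 0 with MeJA. Of 13 such genes 9 were listed at 0 with MeJA and 1 in the control. YAB5, a leaf polarity gene, had 2.93 FPKM in the control and was listed at 0 with MeJA, and so were YAB1 at 2.00 FPKM, EPF2 at 1.55 FPKM and the stomatal lineage gene SPCH at 0.545 FPKM. YAB3 had 0.0570 FPKM with MeJA and 2.50 FPKM in the control. The list summed to 4.23 FPKM with MeJA and 14.5 FPKM in the control, of which KNAT1 alone gave 3.84 FPKM with MeJA and 2.41 FPKM in the control. The part of shoot tissue in the lower photosynthesis genes was not tested. Without the 80 green tissue genes of the main set, 1662 genes were higher and 1871 lower. A wider set held 892 genes at least 4-fold lower in cytokinin than in control roots. Of these 892 genes, 448 were lower and 145 higher with MeJA, beside 9.71% lower and 8.43% higher over the main set. The set and the MeJA ratios use the same control library, so a high control value can place a gene in both lower groups. Without this set 1525 genes were higher and 1476 lower.

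The genes with the lowest ratios held both green tissue and root genes. FBA5, an aldolase, had 0.0696 FPKM with MeJA and 79.9 FPKM in the control and was listed at 0 in both libraries with cytokinin. LHCB2.3, another light-harvesting protein, had 0.0269 FPKM with MeJA and 27.6 FPKM in the control, with a counting interval of -13.56 to -7.99. GASA6, of the gibberellin-regulated family, had 0.171 FPKM with MeJA and 66.4 FPKM in the control. AT3G25190, a vacuolar iron transporter family gene, had 0.357 FPKM with MeJA and 74.7 FPKM in the control. Of the 12 lowest genes, 7 had 3 or fewer estimated fragments with MeJA, and only AT4G11320 kept at least 50% of its control level in the cytokinin library, where the green tissue genes were also low.

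Genes that kept their level with cytokinin and fell with MeJA were therefore ranked apart. AT4G11320, a papain family protease, had 0.631 FPKM with MeJA and 106 FPKM in the control, with 278 FPKM in the cytokinin library. AGP30, an arabinogalactan protein of the root, had 2.36 FPKM with MeJA and 159 FPKM in the control, and MLP328, of the major latex protein family and 90.4% identical to AT4G14060 over the aligned part, had 1.88 FPKM with MeJA and 123 FPKM in the control. XTH17, a xyloglucan-modifying wall enzyme, had 4.15 FPKM with MeJA and 107 FPKM in the control, and shares 90.7% identity with XTH18. ICS2, an isochorismate synthase, had 0.187 FPKM with MeJA and 8.57 FPKM in the control. AGL42, a MADS factor known from the quiescent center, had 0.539 FPKM with MeJA and 11.5 FPKM in the control. The other members, AT1G77520, AT5G11420, AT4G22460, AT5G55620, AT3G45680 and XTH33, had log2 ratios between -6.94 and -4.48. MLP328 was the member of this group that stayed within 2-fold between the libraries with cytokinin, at 237 FPKM in MeJA/cytokinin and 307 FPKM in cytokinin roots.

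The only other pair of libraries that differ by MeJA is MeJA/cytokinin against cytokinin, and it shares no library with MeJA against control. Ribosomal RNA genes took 4.92% of summed FPKM in the MeJA/cytokinin and 0.641% in the cytokinin library, and the part of this in the ratios was not tested. In it 8.32% of 19672 main set genes passed 2-fold upward and 6.22% downward. Of the 1632 genes higher with MeJA alone that had a ratio there, 1037 were also higher with cytokinin present, or 63.5%, and 22 were lower. Of the 1839 genes lower with MeJA alone that had a ratio there, 836 were also lower, or 45.5%, and 61 were higher. When green tissue genes and genes at least 4-fold lower in cytokinin than in control roots were set aside, 738 of 1468 were also lower, or 50.3%. That filter removes genes low in the cytokinin library, which is also the denominator of the ratio scored here, so this share is not comparable with 45.5%. Of the 305 genes at least 8-fold higher with MeJA alone that had a ratio there, 268 were also at least 2-fold higher with cytokinin present.

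List medians of the 2 pairs can be set side by side. The JAZ repressors had 3.21 alone and 2.91 with cytokinin, flavonoids -1.86 and -1.93, endodermis -2.08 and -1.60, suberin -2.13 and -1.55, and aquaporins -1.11 and -1.41. The MYC-branch outputs had 3.17 alone and 4.66 with cytokinin, where VSP1 had 273 FPKM in MeJA/cytokinin and 40.8 FPKM in cytokinin roots. LOX2 had 0.0446 FPKM in MeJA/cytokinin roots and was listed at 0 in cytokinin roots, against 11.9 FPKM with MeJA alone. Sulfur assimilation had 1.11 alone and 0.27 with cytokinin, root triterpenes 1.33 and 0.43, and type-A ARRs -0.85 and 0.31. Photosynthesis had -2.45 alone and -0.64 with cytokinin over 30 genes with a ratio there, at low levels in both of those libraries. Whether any list differs between the 2 pairs was not tested.

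**Figure D5:**
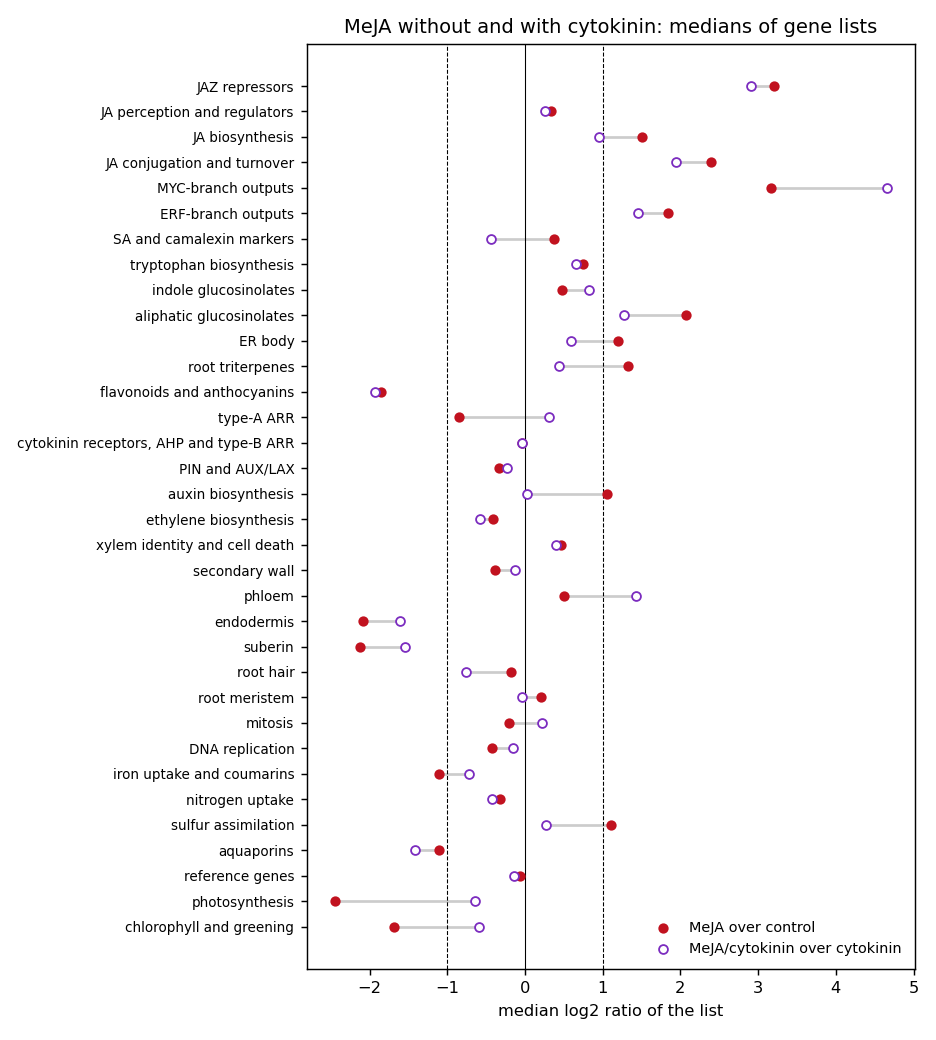
Median log2 ratio of each gene list for MeJA over control (filled red) and for MeJA/cytokinin over cytokinin (open purple), 1 library per condition, with dashed lines at 2-fold. Endodermis (-2.08 and -1.60) and flavonoids (-1.86 and -1.93) stay low in both, and photosynthesis (-2.45 and -0.64) lies apart.

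Genes listed at 0 in one library have no ratio and stand outside these counts. There were 1022 genes at 0 with MeJA only and 949 at 0 in the control only, and most of them, 964 and 875, were under 1 FPKM in the other library. At 5 FPKM or more in the other library, 22 genes were at 0 with MeJA and 27 at 0 in the control. LCR85, of a small cysteine-rich protein family, had 116 FPKM with MeJA and was listed at 0 in the control, with 0.225 FPKM in cytokinin and 48.3 FPKM in MeJA/cytokinin roots. A listed 0 may be a failed estimate, as AT3G08520, a ribosomal protein gene, was listed at 0 with MeJA and had 1498 FPKM in the control and more in the other libraries (both genes were chosen after their values were seen).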

How the data were processed

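Total RNA from roots was polyA-selected and sequenced from both ends, in 1 library per condition. The authors deposited FPKM values calculated with Cufflinks for TAIR10 genes, which are divided by transcript length and mapped fragments, and a count of the reads sequenced in each library, of 101 bases each. Their processing notes name Bowtie, and versions and strand setting are not given in the sources used here, so overlapping genes on opposite strands may share reads. FPKM was divided without a pseudocount (MeJA over control), values above 0 but under 3 estimated fragments were raised to 3 fragments, and 2-fold was the threshold, as no replicate test was possible. Where a gene named for its ratio rested on so few fragments, the counting interval of the ratio is given. Fragments were estimated with a fragment length of 160 and RefSeq exon lengths, with Poisson intervals for values and Clopper-Pearson intervals for ratios. About 60.4% to 61.6% of low values lay within 0.1 of a whole fragment, so the estimate is approximate. Ribosomal RNA genes held 1.31% of summed FPKM with MeJA and 0.823% in the control, and 4.92% in the MeJA/cytokinin and 0.641% in the cytokinin library.

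The 36 gene lists and all choices were made with earlier results of these data known. The genes named are the 12 highest and 12 lowest ratios among genes of at least 5 FPKM, the 12 lowest that kept at least 50% of the control level with cytokinin and were in no green tissue list, list members, and genes the study names. Promoters came from TAIR10.1, whose nuclear sequence is that of TAIR10. Near copies were sought with BLAST 2.17.0 at 90% identity or more over at least 50% of a transcript. Computation used Python 3.11.15, numpy 2.4.6, pandas 2.3.3 and scipy 1.17.1. The steps were also run on simulated libraries with planted fold changes, drawn from the control values with counting error only. These simulated libraries used the same transcript and fragment lengths as the estimates, so they do not test those settings. Values of 1 endodermis list member are not reported here.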

Additional observations from a re-analysis of the deposited data

Results flagged for a closer look

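Of 364 list genes with a ratio in both pairs of libraries, 4 passed 2-fold in opposite directions with MeJA alone and with MeJA beside cytokinin, and 114 passed it in the same direction. Over the 19672 main set genes with both ratios, 22 higher and 61 lower genes passed it in the opposite direction beside cytokinin. In the same direction there were 1037 and 836. The lists were chosen with earlier results of these data known. PIN5, an auxin carrier, had a log2 ratio of -3.91 for MeJA over control and 1.06 for MeJA/cytokinin over cytokinin. NAS2, a nicotianamine synthase, had -1.99 alone and 1.15 with cytokinin. PSAE1, a photosystem I subunit, had -2.34 alone and 1.18 with cytokinin, at 4.66 FPKM in MeJA/cytokinin and 2.06 FPKM in cytokinin roots. CYP71A13, a camalexin synthesis gene that shares 90.5% identity with CYP71A12, had 1.27 alone and -1.23 with cytokinin. With 1 library per condition these differences were not tested.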

How the results depend on the processing

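With a 1.5-fold threshold 3178 genes were higher and 3415 lower with MeJA, and with a 3-fold threshold 894 were higher and 979 lower. Among genes that reached 5 FPKM in either library 1154 were higher and 1273 lower, as fewer genes were examined. Under the other 7 alternatives, counts stayed within 1.5 times of 1670 and 1924. They ran from 1269 (pseudocount of 1 FPKM) to 2081 (no filter on low values) for higher genes and from 1378 to 2549 under the same alternatives for lower genes. Rescaling shifted the log2 ratios by 0.01 and brought JAZ12 past 2-fold, at 1.01. A pseudocount of 1 FPKM brought 18 of 405 named genes under 2-fold, namely LOX3, LOX4, AOC2, CYP94C1, JR2, CYP71A12, CYP71A13, MYB122, ARR3, YUC8, BRX, FAR1, RSL1, RSL2, WOX5, RNS1, GLK1 and GLK2. The 405 include genes that were within 2-fold from the start and could not lose a call, so the share among called genes is larger. Of the list medians, flavonoids moved to -0.85 and auxin biosynthesis to 0.40 without a filter, and auxin biosynthesis to 0.91 and shoot identity to -0.61 with the pseudocount. No list median or named gene changed direction past the threshold. Leaving out a library was not possible. No paired analysis was possible because there was a single library of each kind and no replicate number to pair. Depth limits statements on genes near 0.0764 FPKM with MeJA and 0.0800 FPKM in the control on 1 kb of transcript.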

Other observations

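Gene families were also grouped by the wording of their RefSeq product names, after the data were seen, and families of at least 15 main set members were counted against 8.43% higher and 9.71% lower over the main set. Of 19 RmlC-like cupins 10 were higher and none lower with MeJA. Of 16 Dof-type zinc finger genes 7 were higher and none lower, of 40 MATE efflux carriers 16 were higher and 1 lower, and of 43 WRKY genes 15 were higher and 5 lower. Glutathione S-transferases of the tau class, known from detoxification, had 10 of 25 members higher and 2 lower.

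Other families had more lower than higher members. Of 24 xyloglucan endotransglucosylase/hydrolase genes, which loosen and rejoin wall polymers, 12 were lower and 2 higher. Of 26 arabinogalactan genes 12 were lower and 1 higher, and of 38 SAUR-like auxin-responsive genes 17 were lower and 3 higher. Of 88 cysteine/histidine-rich C1 domain genes 28 were lower and 4 higher. Peroxidases moved both ways, with 16 of 58 higher and 20 lower.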
